A study of Mus musculus with 12 samples.

Results

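The plasminogen activation system was described here across the regions of a healing skin wound through 6 genes: the activators Plau and Plat, the receptor Plaur, and the inhibitors Serpine2, Serpinb2 and Serpinb5. A member had to be named by a probe set annotated to that gene alone. Of the 6 genes, 5 were measured, with 8 probe sets, among 17097 genes and 28898 such probe sets on the array. Serpine2 had no probe set annotated to it alone and was not analysed here. Plau, Plat and Serpinb5 had 2 probe sets each, and Plaur and Serpinb2 had 1. The brighter probe set of a gene, by its mean over the 12 arrays, led, and the second one is given beside it.

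The tail skin of CD1 mice was wounded with a punch of 3 mm, and basal epidermal cells were profiled 4 and 7 days later (D4 and D7). Leading edge (LE) cells came from a 4 mm punch around the wound. Proliferative hub cells came from a 6 mm punch, and control cells from tail skin far from the wound. Each of the 6 groups, LE, hub and control at D4 and at D7, had 2 arrays, and each array held cDNA amplified from 300 sorted cells of a pool of 5 mice. All groups were sorted for high α6-integrin and no CD34, which leaves out bulge cells but keeps cells of the infundibulum. The control samples, too, are labelled by the day after wounding.

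Plasmin is a broad protease that dissolves fibrin and helps to activate matrix proteases. It is cut from plasminogen, which circulates in the blood, by the activators uPA (Plau) and tPA (Plat), and uPA works bound to the receptor uPAR (Plaur) on the cell surface. Keratinocytes that move under a wound crust are known for uPA and uPAR, and mice without plasminogen heal skin wounds slowly. Serpins stop the activators: PAI-2 (Serpinb2) inhibits uPA and tPA and is found mostly inside cells, while maspin (Serpinb5) shares the fold but is not known to inhibit the activators as PAI-2 does.

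The promoters of the receptor and of PAI-2 are shown because these genes carried the clearest differences between regions. Each window runs from 250 bases before to 50 after the start of a RefSeq transcript on GRCm38.p6, plus strand. They lie at chr7:24462233-24462532 for Plaur and at chr1:107511173-107511472 for the first of the 2 starts listed for Serpinb2. Both windows lie inside the gene spans printed below, after the first base of each gene.
Plaur: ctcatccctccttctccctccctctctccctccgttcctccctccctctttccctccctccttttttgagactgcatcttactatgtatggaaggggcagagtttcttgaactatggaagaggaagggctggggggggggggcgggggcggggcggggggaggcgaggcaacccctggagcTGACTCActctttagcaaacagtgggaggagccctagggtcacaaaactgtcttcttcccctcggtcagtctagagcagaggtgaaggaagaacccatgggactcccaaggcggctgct
Serpinb2: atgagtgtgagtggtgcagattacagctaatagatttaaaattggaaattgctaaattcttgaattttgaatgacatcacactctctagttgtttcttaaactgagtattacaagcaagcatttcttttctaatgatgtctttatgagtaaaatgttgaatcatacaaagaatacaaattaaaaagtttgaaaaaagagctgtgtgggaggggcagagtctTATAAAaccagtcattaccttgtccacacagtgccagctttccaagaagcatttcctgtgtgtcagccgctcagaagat
Capitals in the Plaur promoter mark TGACTCA, the site that AP-1 transcription factors are known to bind, whose first base lies 69 bases before the start. Capitals in the Serpinb2 promoter mark TATAAA, the core of a TATA box, whose first base lies 29 bases before the start. From the second start listed for Serpinb2, the same TATAAA lies 116 bases away. Both strands were searched, and TGACTCA or its reverse complement stood in 1709 of 32851 windows of 300 bases, a share of 5.2%. TATAAA was found in 4473 of them, a share of 13.6%. The Serpinb2 window had a GC content of 35.3%, against 59.3% in that of Plaur and 58.3% in that of Serpinb5. The Serpinb5 window, at chr1:106860925-106861224, held neither motif. Gene positions below are from the same RefSeq annotation.

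Values are log2 intensities after robust multi-array averaging (RMA), and differences are log2 fold changes from limma, fitted over all 17097 genes with Benjamini-Hochberg adjustment. A gene was called where the adjusted p was under 0.05. The array medians lay between 5.40 and 5.47 at D4 and between 4.25 and 4.28 at D7, so regions were compared within a day only. The 2 arrays of a group correlated at r = 0.988 to 0.993. All 6 markers of basal keratinocytes were above the array median on all 12 arrays. Of 7 immune markers, 3 were at or below it on every array, Ptprc among them, as were 3 of 4 neutrophil and 4 of 6 fibroblast markers. Of 5 endothelial and 5 melanocyte markers, 0 were that low on every array. Above the median on all 12 arrays were 1 immune, 1 endothelial and 1 melanocyte marker. With 2 pools per group, the p-values measure only the spread between these arrays. In pooled cells, fewer cells of a type and less RNA per cell cannot be told apart.

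The receptor and uPA, the activator it binds, were higher in the LE than in control on both days, and PAI-2 was lower in both wound regions at D7. Against control, 2 of the 5 measured genes rose in the LE at D4, Plau and Plaur, where 8.3% of all genes were called higher and 5.83% lower. At D7 the same 2 genes rose in the LE and Serpinb2 fell, where 9.25% of all genes were called higher and 5.37% lower. In the hub no member was called at D4 by limma (0.328% of all genes), nor did any have an unadjusted p under 0.05. At D7 1 member, Serpinb2, fell in the hub, where 0.17% of all genes were called lower. Between LE and hub, only Plaur was called, higher in the LE at D4 (2.61% of all genes called higher) and at D7 (1.33%). LE and hub were set against the same control arrays, so these comparisons are not independent of each other.

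**Figure D1:**
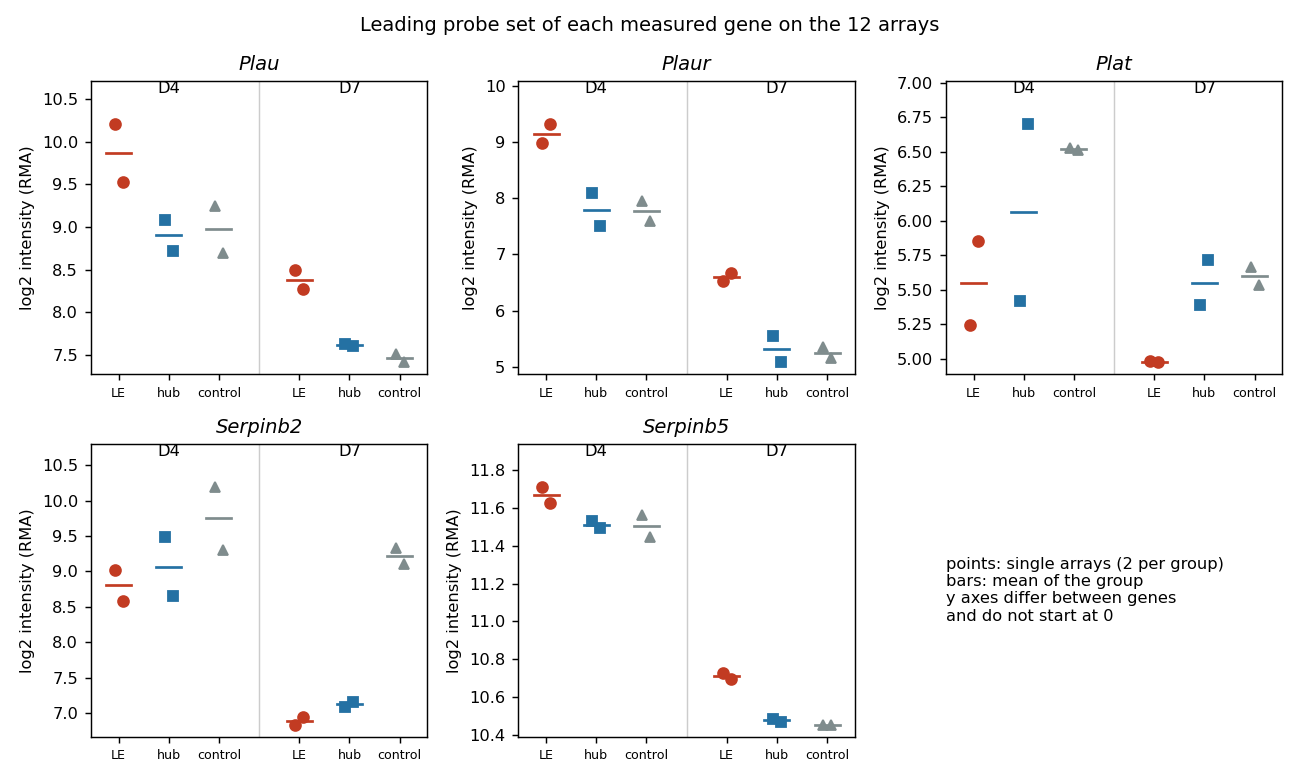
Log2 intensity of the leading probe set of each measured gene (y axis) on single arrays (points, 2 per group) in LE, hub and control cells at D4 and D7 (x axis), with group means as bars. In the LE, Plau and Plaur stand above hub and control on both days, and Serpinb2 stands near 7 in both wound regions at D7, against values above 9 in control.

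Plau (chr14:20836662-20843388) encodes urokinase, the activator that works at the cell surface. At D4 its leading probe set read 10.21 and 9.52 in LE cells and 9.08 and 8.72 in hub cells, against 9.25 and 8.70 in control. The LE arrays lay above all others of that day, and the ranges of hub and control overlapped. Its D7 readings were 8.49 and 8.27 in LE cells and 7.63 and 7.60 in hub cells, against 7.51 and 7.41 in control. Here too the LE arrays were the highest, and the hub arrays lay just above those of control.
The log2 difference of LE over control was 0.89 ± 0.24 (SE) at D4 (adjusted p = 0.0327), 1.86-fold, and 0.92 ± 0.24 at D7 (adjusted p = 0.0286), 1.90-fold. That of hub over control was -0.07 (95% interval -0.60 to 0.46) at D4 and 0.16 (-0.37 to 0.69) at D7. LE exceeded hub by 0.96 at D4 (adjusted p = 0.0502) and by 0.77 at D7 (adjusted p = 0.136), and neither was called. By group means the LE came first, the step down to the hub was not called, and hub and control did not differ beyond their spread. LE over hub was called in 6 of the 10 alternatives at D4 and in 3 at D7, the replicate block among them on both days (adjusted p = 0.00352 and 0.0131 at D4 and D7), and over all alternatives these adjusted p reached 0.291 and 0.463. The D4 call was lost without LE D4 replicate 1 (0.55, adjusted p = 0.206), without control D4 replicate 2 (0.62, adjusted p = 0.196) and without either hub D7 array (adjusted p = 0.0533), and also when only the D4 arrays (adjusted p = 0.138) or only the compared groups (adjusted p = 0.176) were fitted. The D7 call was lost without any 1 of the 4 arrays compared, with adjusted p up to 0.166. Over all alternatives the adjusted p ranged between 0.00179 and 0.206 at D4 and between 0.00186 and 0.166 at D7.

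The second Plau probe set read nearer the array median, at most 1.68 above it. At D4 it read 7.15 and 6.64 in LE cells and 5.03 and 5.14 in hub cells, against 5.52 and 4.97 in control. The LE arrays again stood apart, by more than on the leading probe set. From the array median, the hub arrays stood at -0.40 and -0.28, and those of control at 0.08 and -0.45. Low readings cannot be told from background, so the sizes of the D4 differences on this probe set are open to that limit. Tested over the 28898 probe sets, LE over control was 1.65 ± 0.24 at D4 (adjusted p = 0.0017), with 7.51% of probe sets called higher, and LE over hub was 1.81 ± 0.24 (adjusted p = 0.0031), with 2.36% called higher. The readings at D7 were 4.91 and 4.42 in LE cells and 4.11 and 4.47 in hub cells, against 3.99 and 3.86 in control. LE and hub overlapped there (0.38, adjusted p = 0.524), and LE over control was 0.74 (adjusted p = 0.0729). The 2 probe sets thus placed the LE highest by group mean on both days and differed in how far it stood from the hub.

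Plaur (chr7:24460937-24475970) encodes the urokinase receptor, which holds uPA at the membrane. At D4 its probe set read 8.98 and 9.32 in LE cells and 8.09 and 7.51 in hub cells, against 7.95 and 7.60 in control. On D7 arrays it read 6.53 and 6.67 in LE cells and 5.55 and 5.08 in hub cells, against 5.34 and 5.16 in control. On both days the LE arrays lay above the other 4 of their day, and the hub arrays spanned those of control.
LE over control was 1.37 ± 0.23 at D4 (adjusted p = 0.00325), 2.59-fold, and 1.35 ± 0.23 at D7 (adjusted p = 0.00391), 2.55-fold. LE over hub was 1.35 at D4 (adjusted p = 0.00902) and 1.29 at D7 (adjusted p = 0.0201). Hub over control was 0.02 (95% interval -0.49 to 0.52) at D4 and 0.06 (-0.44 to 0.57) at D7. The change of the LE difference between the days was -0.02 (95% interval -0.73 to 0.69). Against control, the rise of Plaur in the LE was called on both days in all 10 alternatives and all 12 fits that left out an array. Against the hub its call was lost at D4 without hub D4 replicate 2 (1.06, adjusted p = 0.0682) and at D7 without LE D7 replicate 1, LE D7 replicate 2 or hub D7 replicate 2 (adjusted p = 0.112, 0.106 and 0.159). The D4 call was also lost with only the D4 arrays (adjusted p = 0.0683) or only the compared groups (adjusted p = 0.0873) fitted. Over all alternatives the adjusted p against the hub ranged between 0.00339 and 0.0873 at D4 and between 0.00739 and 0.159 at D7.
Among 7 immune markers 1, Cd68, and among 4 neutrophil markers 1, Cxcr2, were called higher in the LE than control at D4. The summed immune markers lay between 7.95 and 8.39 in LE cells, against 7.96 to 8.11 in control, at D4, and between 6.74 and 6.91 in LE cells, against 6.80 to 7.15 in control, at D7. LE and control overlapped in this sum on both days. The sum of the 4 neutrophil markers did not overlap between LE and control, with 6.77 to 7.04 in LE cells and 6.74 to 6.75 in hub cells at D4, against 6.69 to 6.73 in control, and 5.60 to 5.75 in LE cells and 5.39 to 5.51 in hub cells at D7, against 5.48 to 5.49 in control. In the LE the mean of each neutrophil marker lay below the array median on both days. Of the 4, Cxcr2 differed most, with LE means of 5.20 at D4 and 4.11 at D7, against 4.41 and 3.64 in control. Csf3r was lower in the LE than control at D4 (4.63 against 4.82), and Elane at D7 (3.08 against 3.15). Mpo on both days, Elane at D4 and Csf3r at D7 were higher in the LE, by less than Cxcr2. The sum of the 5 endothelial markers lay between 8.37 and 9.04 in LE cells at D4, against 7.56 to 9.11 in control, which overlapped. At D7 it was higher in the LE, at 8.05 to 8.33, against 6.86 to 7.23 in control. The part of these cells in the Plau and Plaur values was not tested.

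Plat (chr8:22757722-22782848) encodes tissue-type plasminogen activator, known best as the fibrin-bound activator of the vessel wall. At D4 its leading probe set read 5.24 and 5.86 in LE cells and 5.42 and 6.70 in hub cells, against 6.53 and 6.51 in control. The LE arrays lay below those of control, while the hub arrays, which differed by 1.28, fell on either side of them. At D7 the values were 4.99 and 4.98 in LE cells and 5.39 and 5.71 in hub cells, against 5.66 and 5.53 in control. The LE arrays were the lowest of that day too. These readings lay between 0.22 below and 1.43 above the array median, so Plat was read close to the middle of the array.
LE over control was -0.97 ± 0.34 at D4 (adjusted p = 0.096) and -0.62 ± 0.34 at D7 (adjusted p = 0.293), and neither was called. For hub over control it was -0.46 at D4 (adjusted p = 0.765), and -0.05 at D7 (adjusted p = 0.981). Without either hub D4 array the D4 difference of LE and control was called (-0.97, adjusted p = 0.0104), as it was with the replicate number as a block (adjusted p = 0.0445), and over all alternatives its adjusted p ranged between 0.0104 and 0.422. At D7 it was called with only the D7 arrays fitted (adjusted p = 0.0212) or only the compared groups (adjusted p = 0.0208), and its adjusted p reached 0.818. The second probe set read 5.40 and 4.65 in LE cells and 5.06 and 5.73 in hub cells at D4, against 5.29 and 5.90 in control. The groups overlapped, and LE over control was -0.57 (adjusted p = 0.295), of the same sign as on the leading probe set. It read 4.20 and 4.34 in LE cells and 4.41 and 4.80 in hub cells at D7, against 3.75 and 4.10 in control. At D7 LE over control was 0.35 (adjusted p = 0.553), opposite in sign to the leading probe set, so the probe sets of Plat gave no common direction at D7.
The hub D4 array with the high Plat reading, replicate 2, also had the highest sum of the 5 melanocyte markers, 11.08 on the log2 scale, against 8.20 in replicate 1. At D4 that sum lay between 7.75 and 7.88 in the LE, 8.20 and 11.08 in the hub, and 8.29 and 10.01 in control. The control D4 arrays, with sums of 10.01 in replicate 1 and 8.29 in replicate 2, read 6.53 and 6.51 for Plat. Of the 5 markers 1, Mitf, was called lower in the LE than control on both days. The part of melanocytes, or of the other cells named here, in the Plat values was not tested. Without hub D4 replicate 2, LE over hub on the leading Plat probe set was 0.13 at D4, against -1.15 without hub D4 replicate 1.

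**Figure D2:**
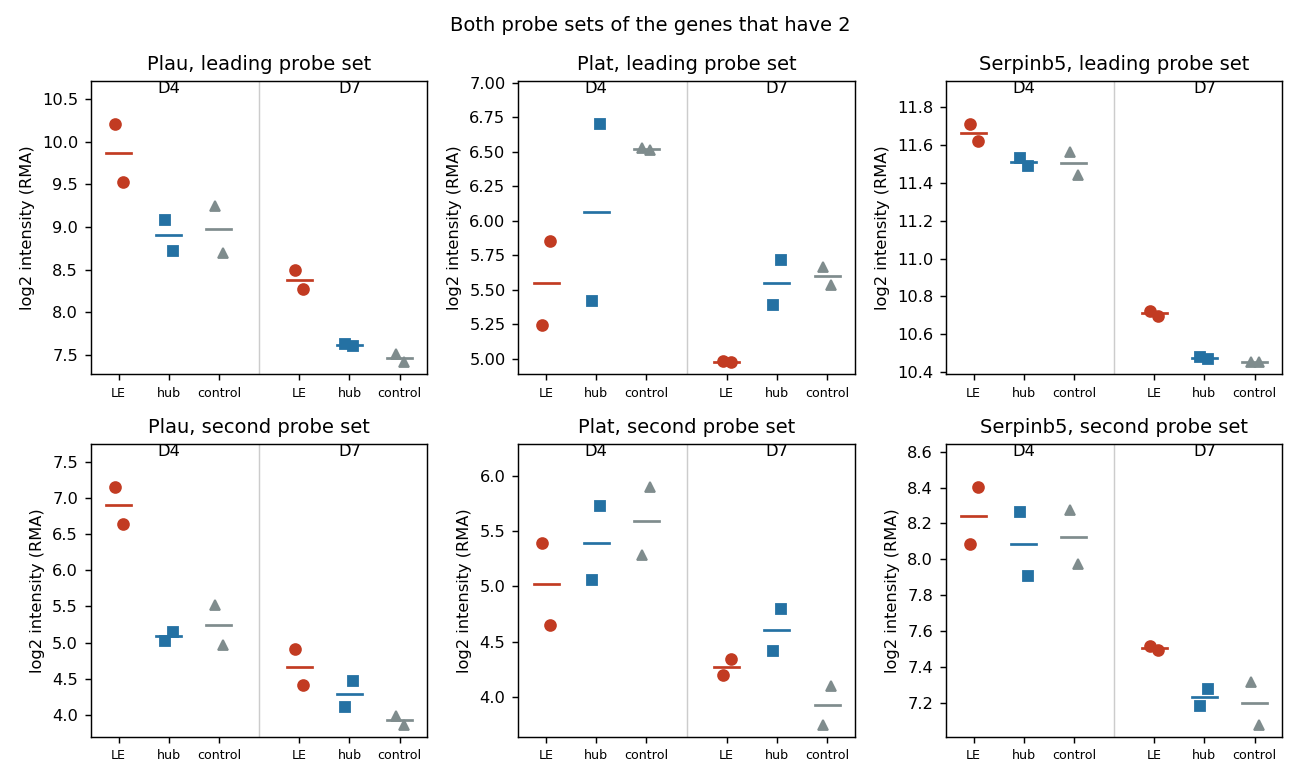
Log2 intensity (y axis) of both probe sets of Plau, Plat and Serpinb5 on single arrays in LE, hub and control cells at D4 and D7 (x axis), with group means as bars. Both Plau probe sets have the highest mean in the LE on both days, while the D7 means of Plat in LE and control stand in opposite order on its 2 probe sets.

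Serpinb2 (chr1:107500892-107525600) encodes PAI-2, an inhibitor of both activators that is made in quantity by differentiating keratinocytes and by activated macrophages. At D7 its probe set read 6.83 and 6.94 in LE cells and 7.09 and 7.16 in hub cells, against 9.34 and 9.10 in control. The wound regions lay far below control, and the LE arrays just below those of the hub. At D4 it read 9.02 and 8.58 in LE cells and 9.48 and 8.65 in hub cells, against 10.19 and 9.31 in control. At D4 the LE arrays also lay below both of control, while hub and control overlapped. In each region replicate 1 exceeded replicate 2 at D4.
At D7 LE over control was -2.33 ± 0.31 (adjusted p = 0.00119), 5.03-fold lower in the LE, and hub over control was -2.09 ± 0.31 (adjusted p = 0.0194), 4.27-fold lower in the hub. In the hub at D7 only 1 of the 17097 genes had a lower log2 fold change than Serpinb2, which ranked 2 from the lowest, and in the LE it ranked 27 from the lowest. LE over hub was -0.24 (95% interval -0.93 to 0.45) at D7 and -0.27 (-0.96 to 0.43) at D4. At D4 LE over control was -0.95 ± 0.31 (adjusted p = 0.0752) and hub over control was -0.68 (adjusted p = 0.47), and neither was called.
The difference from control was lower at D7 than at D4 by 1.38 in the LE (95% interval -2.36 to -0.40 for the change, unadjusted p = 0.0105, adjusted p = 0.445) and by 1.41 in the hub (-2.39 to -0.43, unadjusted p = 0.00944, adjusted p = 0.999). Neither change was called by limma, where 0.0292% of all genes were called for the LE and 0% for the hub, so a difference between the days was not shown. The LE call at D7 held in all 10 alternatives and all 12 fits that left out an array. The hub call at D7 was lost without hub D7 replicate 1 or 2 (adjusted p = 0.105 and 0.19) and without control D7 replicate 1 or 2 (adjusted p = 0.141 and 0.0911), with a log2 difference between -2.21 and -1.98 in these fits and an adjusted p down to 0.000949 over all alternatives. The D4 difference of LE and control was called with the replicate number as a block (adjusted p = 0.00393), without either hub D4 array (adjusted p = 0.0424) and without control D4 replicate 2 (-1.39, adjusted p = 0.0206), and its adjusted p reached 0.39 over all alternatives.
Sums of the bulge, infundibulum and fibroblast markers were lower in both wound regions than in control at D7, as Serpinb2 was. Each sum follows its brightest genes, and single markers did not all go that way. By group means at D7, Cd34, Pdgfra and Lum were higher in both wound regions, and Krt79 was higher in the hub only. The other markers of these classes, Krt15, Lgr5, Lrig1, Plet1, Dcn, Col1a1, Col1a2 and Col3a1, were lower in both. The sum of the 3 bulge markers lay between 7.89 and 8.25 in the LE and between 9.24 and 9.27 in the hub at D7, against 9.75 to 9.95 in control. At D4 it lay between 7.74 and 8.63 in the LE and between 9.24 and 10.30 in the hub, against 10.06 to 10.56 in control. The means of Cd34 and Lgr5 at D4 were higher in both wound regions than in control. Of the 3 markers 1, Krt15, was called lower in the LE on both days, and the mean of Cd34, which the sort selected against, lay below the array median in every group. At D7 the sum of the 3 infundibulum markers lay between 10.70 and 10.72 in the LE and between 10.96 and 11.05 in the hub, against 11.44 to 11.46 in control, and 1 of the 3, Plet1, was called lower in the LE. The sum of the 4 suprabasal markers lay between 12.02 and 12.28 in the LE and between 12.31 and 12.34 in the hub, against 12.18 to 12.23 in control, so that LE and control overlapped and the hub lay above control, opposite to Serpinb2. At D4 that sum lay between 12.26 and 12.64 in the LE, 12.79 and 13.16 in the hub, and 13.11 and 13.12 in control, and Krt1 and Krt10 were called lower in the LE. The sum of the 6 fibroblast markers at D7 lay between 6.14 and 6.38 in the LE and between 6.43 and 6.45 in the hub, against 7.23 to 7.33 in control, and 1 of the 6, Dcn, was called lower in the LE. The sum of the 5 melanocyte markers at D7 lay between 6.45 and 6.47 in the LE and between 6.77 and 6.97 in the hub, against 6.90 to 6.96 in control, so that only the LE lay apart. The part of these cells in the Serpinb2 values was not tested.

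Serpinb5 (chr1:106861175-106883348) encodes maspin, known for its part in the adhesion of epithelial cells. At D4 its leading probe set read 11.71 and 11.62 in LE cells and 11.53 and 11.49 in hub cells, against 11.56 and 11.44 in control. At D7 it read 10.73 and 10.70 in LE cells and 10.48 and 10.47 in hub cells, against 10.45 and 10.45 in control. The LE arrays lay above the other 4 on each day, by small amounts.
LE over control was 0.16 ± 0.09 at D4 (adjusted p = 0.324) and 0.26 ± 0.09 at D7 (adjusted p = 0.0982), 1.12-fold and 1.20-fold, and neither was called. At D4 LE over hub was 0.16 (adjusted p = 0.489), and at D7 0.23 (adjusted p = 0.249). Hub over control was 0.01 (95% interval -0.20 to 0.22) at D4 and 0.02 (-0.18 to 0.23) at D7. On the second probe set LE over control was 0.12 (95% interval -0.25 to 0.49) at D4 and 0.31 (-0.06 to 0.68) at D7. With a trended, robust prior the D7 difference of LE and control was called (adjusted p = 0.0164), and its adjusted p ranged up to 0.291 over all alternatives.

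**Figure D3:**
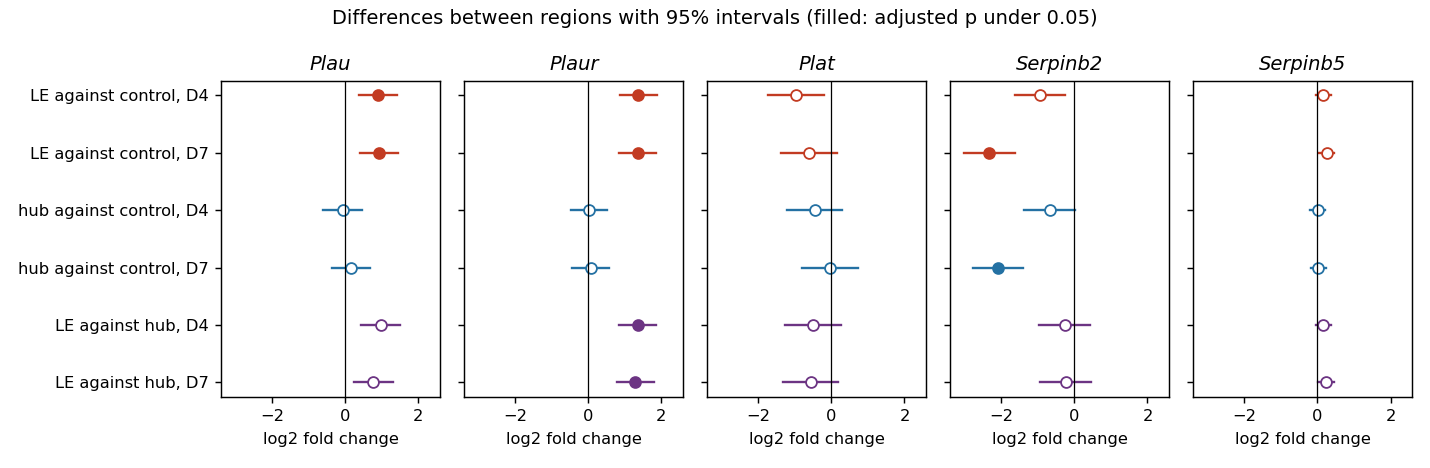
Log2 fold change between regions (x axis) of the leading probe set of each gene in the 6 comparisons (y axis), with 95% intervals from limma as lines and filled points where the adjusted p was under 0.05. LE intervals of Plau and Plaur lie above 0 against control on both days, hub intervals of both genes span 0, and the D7 intervals of Serpinb2 against control lie below -1 in LE and hub.

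A rule that asks for a change of at least 2-fold in each replicate was also applied, to same-numbered arrays. Plaur passed it as higher in the LE on both days, and Serpinb2 as lower at D7 in the LE and in the hub. Over all genes the rule kept 2.26% as higher in the LE at D4 and 1.83% at D7, 1.51% as lower in the LE at D7, and 0.181% as lower in the hub at D7. Between LE and hub it kept 1.08% of all genes as higher in the LE at D4 and 0.597% at D7. On its leading probe set no member passed it there, and Plaur differed by 0.89 and 1.81 in the 2 pairs of arrays at D4 and by 0.98 and 1.59 at D7. The values just below the limit of 1 thus kept the receptor out of that comparison on each day. This outcome depended on which arrays were set against each other, as the closing section gives. The second Plau probe set was past the limit at D4, with 2.12 in one pair of arrays and above 1 in the other for LE over hub, and with 1.63 and 1.68 for LE over control. Its hub and control readings lay near the array median, so these sizes are uncertain, as said above.

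Across the 12 arrays, with the mean of its day taken from each value, Plau, Plaur and Serpinb5 varied together. Pearson's r was 0.955 for Plau and Serpinb5, 0.910 for Plaur and Serpinb5, and 0.884 for Plau and Plaur. Plat ran against all 3 of them, at r = -0.78 with Plau, -0.76 with Plaur and -0.73 with Serpinb5. Serpinb2 had r between -0.50 and -0.41 with these 3 genes and 0.31 with Plat. These are descriptions over arrays that share regions and days, with no test.
The genes most like each member by the same measure were Mtfp1 (r = 0.973), Map7d1 (0.972) and Ercc1 (0.969) for Plau, and Hk2 (0.980), Cdk17 (0.962) and Nt5e (0.956) for Plaur. For Plat they were Wnt3 (0.966), A930013F10Rik (0.951) and Cxcl14 (0.946). For Serpinb2 they were Ifrd1 (0.965), Ifi202b (0.962) and Ppp1r15a (0.961), and for Serpinb5 Mtfp1 (0.986), Xbp1 (0.972) and Phlda2 (0.967). Mtfp1, a mitochondrial protein gene, stood first for both Plau and Serpinb5.

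Among 22 partners of the system, such as plasminogen, its receptors, other inhibitors and clearance receptors, 19 were measured. In the LE 2 rose at D4, St14 and Lrp1, and 1 rose at D7, St14, with none lower, where 8.3% of all genes were called higher at D4 and 9.25% at D7. These counts were near that background. In the hub none was called by limma on either day, where 0.328% of all genes were called at D4 and 0.76% at D7. Of the 19, 2 at D4 and 4 at D7 had an unadjusted p under 0.05. The share of all genes at that unadjusted threshold was not taken, so these 2 counts have no background beside them. The median log2 difference of LE over control for these partners was 0.04 at D4 and -0.02 at D7, against 0.03 and 0.02 over all genes.
St14 encodes matriptase, a membrane protease of epithelia that can activate uPA. At D4 it read 8.16 and 7.61 in LE cells and 7.50 and 7.70 in hub cells, against 7.19 and 7.25 in control. Its D7 readings were 6.48 and 6.51 in LE cells and 6.17 and 6.23 in hub cells, against 5.81 and 5.83 in control. Its LE and hub arrays lay above control on both days, and LE over control was 0.66 ± 0.16 at D4 (adjusted p = 0.0207) and 0.68 ± 0.16 at D7 (adjusted p = 0.0186). Hub over control was 0.38 on both days (adjusted p = 0.412 and 0.359).
Lrp1, a receptor that takes up uPA bound to its inhibitors, read 9.97 and 9.52 in the LE at D4 and 9.12 and 9.29 in the hub, against 9.14 and 9.24 in control. Both LE arrays lay above the others of that day. The LE difference from control was 0.55 ± 0.15 at D4 (adjusted p = 0.0328) and 0.14 at D7 (adjusted p = 0.624). Plg, plasminogen itself, was read below the array median on all 12 arrays and was not called in any comparison. Anxa2, a plasminogen-binding protein of the cell surface, was read at least 6.32 above the array median on all 12 arrays and was not called either. Eno1 and Cpb2 were among those not analysed here.

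Of 18 other serpins of clade B, the family of Serpinb2 and Serpinb5, 12 were measured. In the LE 3 rose and 2 fell at D4, and 2 rose and 2 fell at D7. Over all genes 8.3% were called higher and 5.83% lower in the LE at D4, and 9.25% and 5.37% at D7. In the hub none was called by limma on either day, where 0.328% of all genes were called at D4 and 0.76% at D7. Of the 12, 4 at D4 and 2 at D7 had an unadjusted p under 0.05, again with no share of all genes at that threshold to set beside them. The median log2 difference of LE over control in the family was 0.39 at D4 and 0.04 at D7, against 0.03 and 0.02 over all genes.
Serpinb1a, an inhibitor of neutrophil proteases, read 10.32 and 9.49 in LE cells and 9.15 and 7.96 in hub cells at D4, against 7.72 and 6.62 in control. The readings at D7 were 8.20 and 8.33 in LE cells and 6.37 and 6.88 in hub cells, against 5.49 and 5.90 in control. The hub arrays stood between LE and control on both days. LE over control was 2.74 ± 0.45 at D4 (adjusted p = 0.00314) and 2.57 ± 0.45 at D7 (adjusted p = 0.0047), and hub over control was 1.39 (adjusted p = 0.253) and 0.93 (adjusted p = 0.431) at D4 and D7.
Serpinb6a, a serpin of many tissues, stood 1.62 ± 0.16 above control in the LE at D4 (adjusted p = 0.000173) and 0.76 ± 0.16 above it at D7 (adjusted p = 0.0104). Its LE level also exceeded that of the hub at D4, by 1.01 (adjusted p = 0.00598), and no other of the 12 genes was called between the wound regions. Serpinb6c was higher by 1.16 in the LE at D4 (adjusted p = 0.029) and read -0.04 from control at D7. From the array median its D4 arrays stood at 0.51 and -0.46 in the LE and at -1.06 and -1.19 in control. The size of this D4 difference is thus open to the limit given below for Serpinb7.
Serpinb7 moved the other way, reading 3.57 and 3.02 in LE cells and 5.67 and 5.94 in hub cells at D7, against 7.65 and 7.25 in control. At D4 it read 4.39 and 4.57 in LE cells and 6.13 and 7.21 in hub cells, against 6.10 and 8.35 in control. LE over control was -2.74 ± 0.60 at D4 (adjusted p = 0.0133) and -4.15 ± 0.60 at D7 (adjusted p = 0.00179). The LE arrays were the lowest on both days, and stood at -0.68 and -1.24 from the array median at D7 and at -1.07 and -0.83 from it at D4. Such readings cannot be told from background, so the direction is given here and the size is open to that limit. Hub over control was -1.64 for Serpinb7 at D7 (adjusted p = 0.269). Serpinb8 fell in the LE by 0.74 at D4 (adjusted p = 0.00789) and by 1.09 at D7 (adjusted p = 0.00117), and stood 0.71 below control in the hub at D7 (log2 difference -0.71, adjusted p = 0.0674).

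Of 12 genes of coagulation, the process that lays down the fibrin that plasmin removes, 11 were measured and F2rl1 was not analysed here. In the LE 1 rose and 1 fell at D4, and 1 rose at D7, near the background of 8.3% of all genes called higher and 5.83% lower at D4 and 9.25% higher at D7. None was called by limma in the hub, where 0.328% of all genes were called at D4 and 0.76% at D7. On each day 2 of the 11 had an unadjusted p under 0.05, for which no share of all genes was taken. Procr, the receptor of protein C, read 11.11 and 10.50 in LE cells and 9.54 and 9.06 in hub cells at D4, against 8.27 and 5.81 in control. On D7 arrays it read 9.02 and 8.62 in LE cells and 7.39 and 7.44 in hub cells, against 5.60 and 6.47 in control. The regions were ordered LE, hub, control on both days without overlap. LE over control was 3.77 ± 0.63 at D4 (adjusted p = 0.0035) and 2.78 ± 0.63 at D7 (adjusted p = 0.0161). F2r, the thrombin receptor, read 4.01 and 5.64 in LE cells and 5.55 and 7.22 in hub cells at D4, against 7.18 and 8.05 in control. Both LE arrays lay below control, while the hub arrays overlapped LE and control. Replicate 1 of the LE at D4 stood at -1.46 from the array median, so the size of the D4 difference from control is open to the limit given for Serpinb7. The LE difference of F2r from control was -2.79 ± 0.58 at D4 (adjusted p = 0.0105) and -1.68 ± 0.58 at D7 (adjusted p = 0.0845). At D7 1 of 5 endothelial markers, Cdh5, was called higher in the LE, and their sum lay between 8.05 and 8.33 in the LE and between 6.89 and 7.14 in the hub, against 6.86 to 7.23 in control. The part of endothelial cells in these values was not tested. F3, tissue factor, was not called in any comparison.

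**Figure D4:**
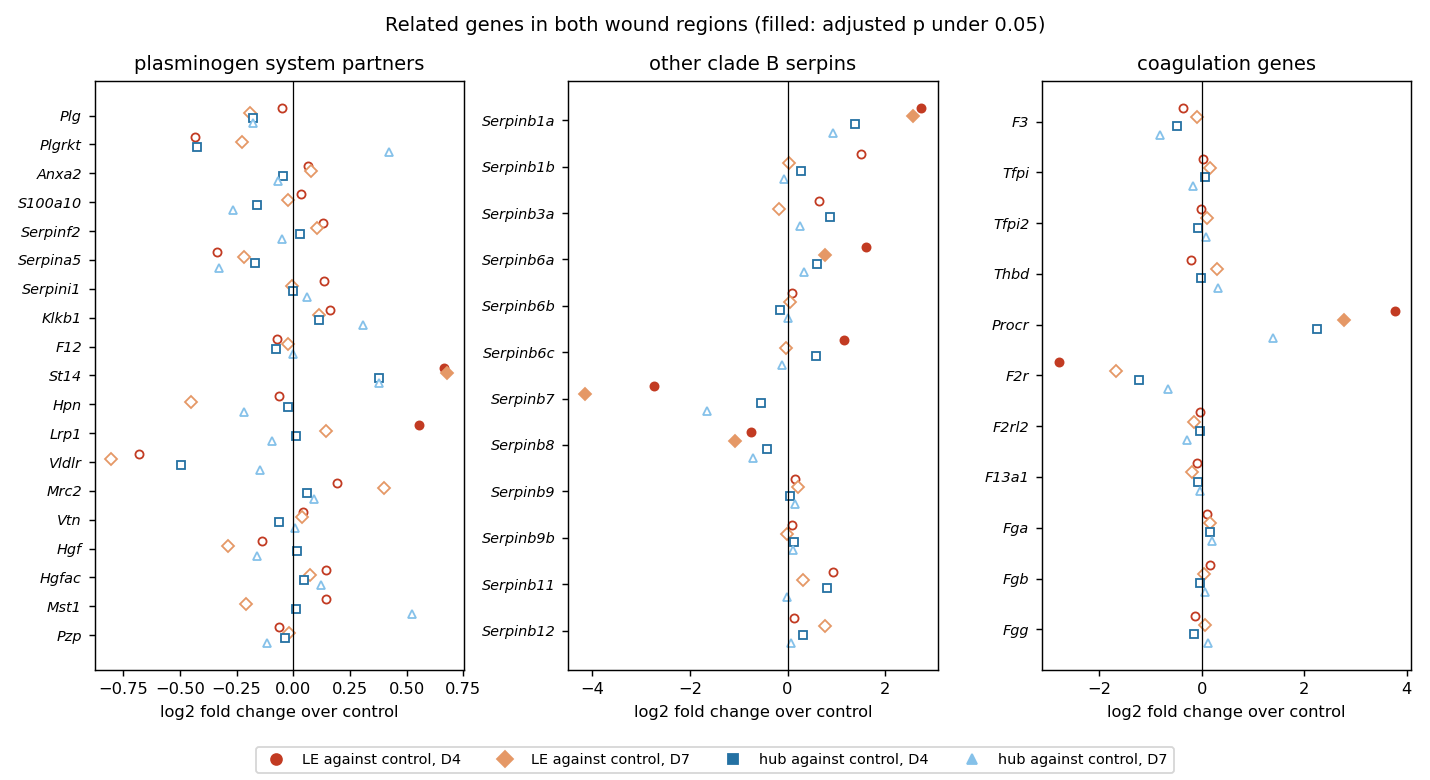
Log2 fold change over control (x axis) of partners of the plasminogen system, other clade B serpins and coagulation genes (y axis) for LE and hub cells on each day, with filled symbols where the limma adjusted p was under 0.05. All filled symbols are those of the LE, with Serpinb7 at -4.15 at D7 and Procr at 3.77 at D4 as the farthest from 0. The LE readings of Serpinb7 lay below the array median, where a reading cannot be told from background.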

How the data were processed

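The deposited table holds 45141 probe sets of the Mouse Genome 430 PM strip array in 12 columns of log2 values. The authors normalized these values with RMA. No version of RMA is given in the sources used here. RMA sets the arrays it handles together to one distribution and gives no detection call, so low readings cannot be told from background. Probe sets of array controls (104), of several genes (551) or with no gene listed (15588) were left out, and gene symbols came from the platform annotation, matched by gene ID for 28689 probe sets to RefSeq (GRCm38.p6).

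The brightest probe set, by its mean over the 12 arrays, stood for a gene. Group means were fitted over all 12 arrays with limma 3.58.1 in R 4.3.3 (6 residual degrees of freedom), with no block, and 6 region comparisons and 3 changes between days were tested, each adjusted over 17097 genes. The fit was tested on simulated data. Named genes are the members, called genes of the 3 lists, Plg and Anxa2, and the 3 genes closest to each member by Pearson's r. Members and lists were chosen with earlier results of these data known. Alternatives changed the scaling, probe set rule, dim-gene filter, array weights, prior, samples fitted and replicate block, or left out an array. Same-numbered arrays correlated in their deviations at r = 0.17 to 0.24 at D4 and 0.00 to 0.07 at D7. The labels tie no number to shared mice, so the main fit did not treat these arrays as pairs. The 2-fold rule did set same-numbered arrays against each other.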

Additional observations from a re-analysis of the deposited data

How the results depend on the processing

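Of 960 values of the 5 genes under the 10 alternatives and 12 fits without 1 array, 917 kept their side of the threshold and their direction where called, 20 lost a call and 23 gained one. No called value turned sign, and 49 values that were not called did. At D4 the number of members called between LE and control, 2, was 1 with the arrays of the day only or of the compared groups only, and 4 with the replicate block, where Plat and Serpinb2 were added. Between LE and hub at D4 the number, 1, was 2 with median centring, the mean of all probe sets, the dim-gene filter, array weights, the trended prior or the replicate block, where Plau was added, and 0 with the arrays of the day only or the compared groups only. Between LE and hub at D7 it was 2 with the arrays of the day only, the compared groups only or the replicate block, again with Plau. Leaving out 1 array gave between 1 and 4 members for LE against control at D4, and between 0 and 1 for hub against control at D7, between 0 and 2 for LE against hub at D4 and between 0 and 1 at D7. Members at 2-fold between LE and hub numbered 1 on each day by group means and 1 with crossed replicate numbers, and 0 in the report. Genes called over the whole array ranged from 895 to 2619 for LE against control at D4 (2416 in the report), 0 to 148 for hub against control at D4 (56), 93 to 205 at D7 (130), 196 to 1014 for LE against hub at D4 (813) and 392 to 725 at D7 (466), and without 1 array fell as low as 1579, 6, 7, 322 and 71. For LE against control at D7 (2499) they were 1016 without LE D7 replicate 1. Causes were not tested. The partners called between LE and control, 2 at D4 and 1 at D7, were 1 at D4 and 2 at D7 under quantile normalization, and 1 at D4 and 3 at D7 with the replicate block. Precision is limited by 2 arrays per group.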
